A study of Mus musculus with 11 samples.

Results

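Genes for 8 transcription factors that set and hold T lineage commitment were followed through the early thymus, namely Lef1, Tcf7, Ets1, Ets2, Spib, Bcl11b, Gata3 and Runx3. They were taken as a named list, all 8 of them are among the 35975 genes of the deposited tables, and all 8 were among the 13780 genes with enough counts to be tested. RNA of sorted thymocytes from C57BL/6J mice had been sequenced at 2 stages of development, DN2 and DN3, in wild-type (WT) and Arpp21-/- (KO) mice. The 11 libraries comprised 3 of DN2 WT, 2 of DN2 KO, 3 of DN3 WT and 3 of DN3 KO thymocytes. The labels give no other allele and no treatment in any group. The Arpp21-/- line lacks 1 exon of Arpp21 in the germline, so that the loss is not limited to thymocytes, and a short form of the protein remains in it. The age of the mice behind each library is not given in the sources used here. Whether each library came from its own mouse is not given either, so p values measure only the spread between these libraries, which may be technical.

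DN2 and DN3 thymocytes lack CD4 and CD8. DN2 cells still express progenitor genes and can give rise to other lineages, and commitment to the T cell fate is completed on the way to DN3, where the gene of the T cell receptor β chain is put together. Notch signals induce Tcf7, which encodes TCF1, and Gata3, and both act upstream of Bcl11b, the zinc finger factor that shuts off the alternative programme. TCF1 and LEF1, the product of Lef1, are related HMG box proteins that bind the same DNA motif and recruit β-catenin through their N-terminal end. ETS1 and ETS2 are closely related ETS domain factors, SPIB is a more distant ETS factor known from B cells and plasmacytoid dendritic cells, and RUNX3 is known as a factor of the later CD8 lineage. Arpp21 encodes an RNA-binding protein of early thymocytes, and the series asks how its loss alters the transcriptome at these stages.

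Levels are given in CPM, estimated counts scaled to a common library sum after edgeR's TMM method. Total estimated counts were between 14531762 and 63109504 per library. Arpp21 itself was at 183, 125 and 136 CPM (DN2 WT), 86.9 and 28.5 CPM (DN2 KO), 386, 336 and 312 CPM (DN3 WT) and 335, 221 and 142 CPM (DN3 KO), which is no check of a missing exon because reads of the whole gene were summed. Of the stage markers, the DN3 list (Ptcra, Rag1, Rag2, Cd28) summed to 52.5 to 91.1 CPM in the 5 DN2 libraries and to 1080 to 1620 CPM in the 6 DN3 libraries. The DN2 list (Kit, Cd44, Flt3, Mpzl2) summed to 578 to 648 CPM in 4 DN2 libraries, but to 163 CPM in DN2 KO replicate 2, inside the 108 to 192 CPM of the DN3 libraries, and its member Mpzl2 had 0.843 to 31.4 CPM in DN2 WT and 50.8 to 88.2 CPM in DN3 WT libraries. DN2 KO replicate 2 and DN3 KO replicate 3 stood apart, with TMM factors of 0.599 and 0.861 against 1.03 to 1.11 in the other 9. In both, long transcripts were low and short transcripts high relative to the other libraries of their stage. The tests of the factors between stages and between genotypes are therefore given with and without them.

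Between the WT stages the factors split into groups. Lef1 and Ets2 rose in DN3. Spib was 15.3-fold higher by its means but missed the threshold, Tcf7, Ets1 and Bcl11b were 1.99-fold to 2.49-fold higher without being called, Gata3 was level, and Runx3 was 2.99-fold lower without being called. Thus 2 of the 8 factors passed an adjusted p of 0.05, both higher, while 4.08% of all genes tested were called, 1.86% higher and 2.22% lower (quasi-likelihood test of edgeR, Benjamini-Hochberg adjusted over 13780 genes). Leaving out the libraries that stand apart, 5 factors were called higher (Lef1, Ets1, Ets2, Tcf7 and Spib) and 1 lower (Runx3), beside 15.3% of 14563 genes called, 6.96% higher and 8.33% lower. By ranges alone, DN3 WT libraries lay entirely above DN2 WT libraries for the same 5 factors and entirely below them for Runx3, and of all genes 17.5% lay entirely above and 17.3% entirely below.

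**Figure D1:**
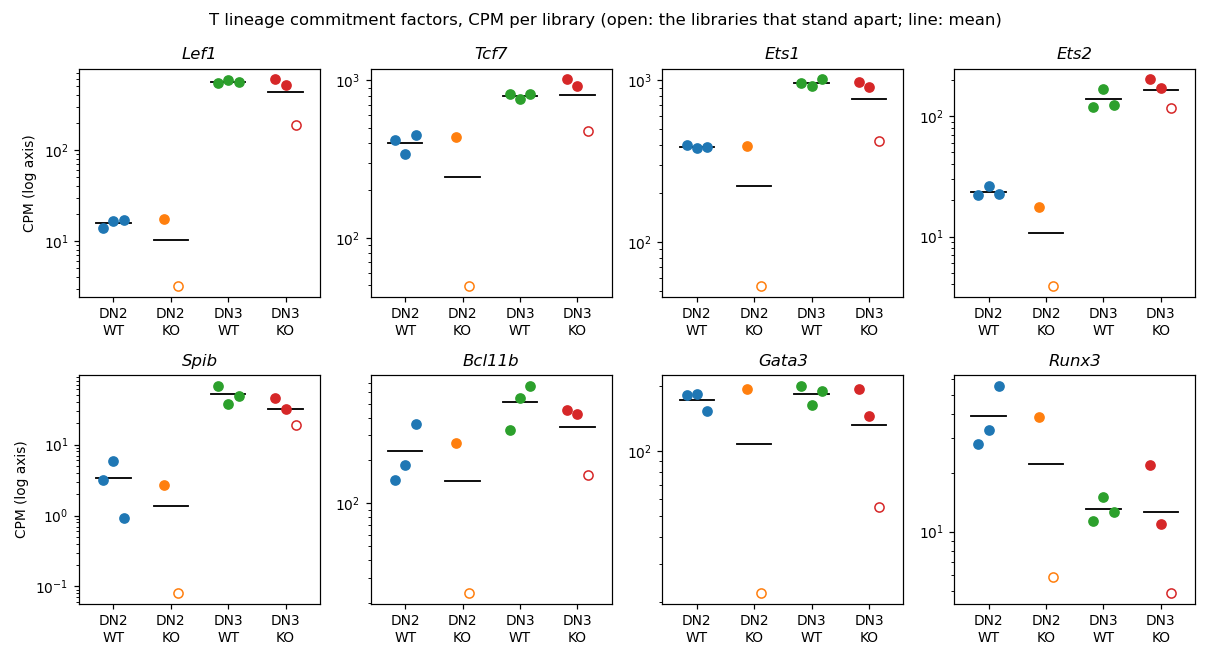
CPM of the 8 factors in each library on log axes, by group of stage and genotype, with a line at each group mean and open circles for DN2 KO replicate 2 and DN3 KO replicate 3. Lef1, Ets2, Spib, Ets1 and Tcf7 are higher in every DN3 library than in every DN2 library, and the open circle is the lowest point of its group in all 8 panels.

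Lef1 (ENSMUSG00000027985.14, chromosome 3 of GRCm38, 131110471 to 131224356, plus strand) showed the widest difference of the 8 factors between the stages in either genotype by the log2 fold changes in all libraries. This held in all 25 alternatives in WT, while in KO Spib was wider in 3 of 25, with 8.56 against 7.11 for Lef1 without DN2 KO replicate 1. Its libraries held 14.0, 16.5 and 17.2 CPM (DN2 WT), 17.5 and 3.18 CPM (DN2 KO), 549, 590 and 556 CPM (DN3 WT) and 605, 519 and 191 CPM (DN3 KO). Every DN3 library was above every DN2 library, with 191 CPM as the lowest DN3 and 17.5 CPM as the highest DN2 value. DN3 exceeded DN2 in WT by a log2 fold change of 5.15 (SE 0.660, 95% confidence interval 3.68 to 6.62, adjusted p = 0.00222) and in KO by 5.41 (SE 0.802, 3.62 to 7.19, adjusted p = 0.00448). With the libraries that stand apart set aside, Lef1 had the lowest p of all 14563 genes in WT (adjusted p = 3.95e-07, log2 fold change 5.17, SE 0.132), and in KO its log2 fold change was 4.99 (SE 0.218, adjusted p = 1.29e-05).

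The transcripts of Lef1 also changed in proportion. Lef1-201 begins at 131110471 and codes for 397 codons, and Lef1-203 begins 2326 bases downstream, inside the first intron of Lef1-201, and codes for 331 codons. The first exon of Lef1-201 (chr3:131110471-131111678) carries 207 coding bases and that of Lef1-203 (chr3:131112797-131112820) carries 9, and both join the same second exon (chr3:131113856-131113922). The transcripts also differ in the non-coding bases of their first exons, so that their shares rest on more than this junction. The coding bases around this junction are shown with the bases of the first exon in capitals.
Lef1-201: AGCAACGGGCATGAGgtggtcagacaagcc
Lef1-203: ATGGCAGGGgtggtcagacaagcc
The protein read from Lef1-203 thus begins with ATG in its own short exon and lacks the N-terminal end encoded by the first exon of Lef1-201, the end known to bind β-catenin.

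Lef1-201 made up 20.6%, 30.7% and 43.4% of the gene's TPM in DN2 WT, and 33.5% and 49.9% in DN2 KO libraries. In DN3 libraries it made up 67.4%, 62.2% and 64.2% (WT) and 66.3%, 59.2% and 69.2% (KO), where TPM are counts per effective transcript length scaled to a fixed sum. Lef1-203 made up 33.9%, 56.7% and 39.9% in DN2 WT, and 59.2% and 33.4% in DN2 KO libraries. In DN3 libraries it made up 20.6%, 16% and 20.1% (WT) and 17.3%, 25% and 15.7% (KO). All 6 DN3 libraries were above all 5 DN2 libraries for Lef1-201 and below them for Lef1-203. Averaged over the genotypes, the share of Lef1-201 was 28.1 percentage points higher in DN3 and that of Lef1-203 was 25.8 percentage points lower, each with an exact two-sided permutation p of 0.00500, the smallest that 200 arrangements of the labels within genotypes allow. They were the only 2 past the threshold for stage among 15 transcripts tested of 6 of the genes, after Benjamini-Hochberg adjustment over the 15, and they are parts of 1 gene, so their shares are not independent.

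In amounts, both Lef1 transcripts were higher in DN3. Lef1-201 together with Lef1-204, a form of 0% to 5.77% of TPM with the same start, had 2.80, 2.96 and 4.20 TPM in DN2 WT libraries and 198, 208 and 207 TPM in those of DN3 WT. Lef1-203 had 4.05, 4.61 and 3.85 TPM in DN2 WT and 56.3, 50.1 and 60.6 TPM in DN3 WT libraries. The ratio of Lef1-201 and Lef1-204 to Lef1-203 was 0.589 to 1.49 over the DN2 libraries and 2.53 to 4.6 over the DN3 libraries. Lef1-206, a form without coding sequence at the start of Lef1-203, took 0% to 6.82% of TPM and was not part of the ratio. The DN2 shares rest on few reads, with 136 to 225 estimated counts of Lef1-203 in the DN2 libraries other than DN2 KO replicate 2, which had 32.7. Lef1-208, which has no coding sequence, took 36%, 0% and 13.0% of TPM in DN2 WT replicates 1, 2 and 3, in the opposite order to Lef1-203. Leaving out the libraries that stand apart, the differences were 31.1 and -31.3 percentage points with p = 0.0167 each by the exact permutation test, again the smallest the arrangements allow, which does not pass the threshold after adjustment. Between genotypes no transcript passed, and the share of Lef1-201 differed by 5.22 percentage points (KO minus WT, exact permutation p = 0.375).

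**Figure D2:**
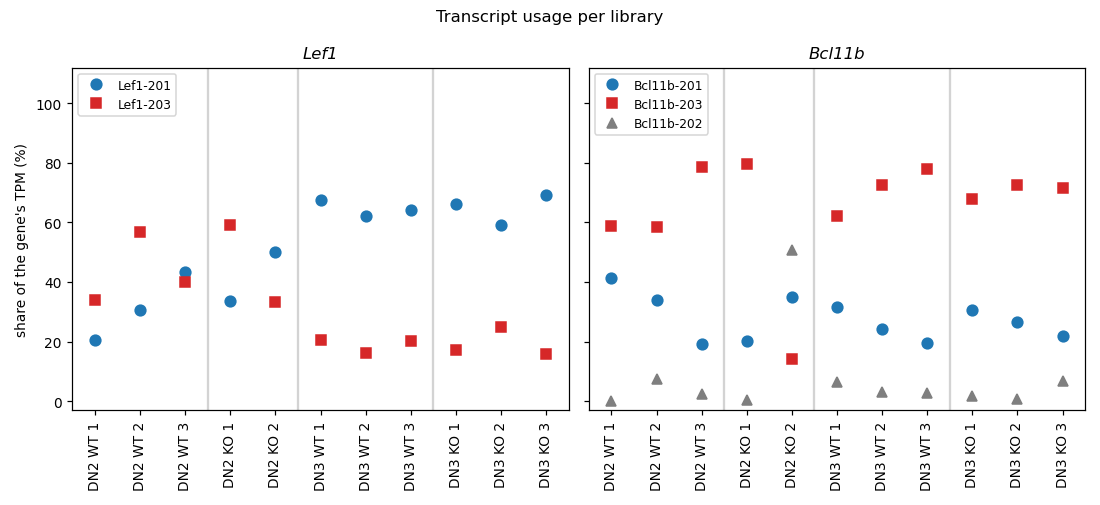
Share of the gene's TPM in percent for the main transcripts of Lef1 (left) and Bcl11b (right) in each of the 11 libraries. Lef1-201 lies at 59.2% or more in DN3 and at 49.9% or less in DN2, and in DN2 KO replicate 2 the Bcl11b transcripts take other shares than elsewhere.

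Tcf7 (ENSMUSG00000000782.15, chromosome 11, 52252371 to 52283014, minus strand), the HMG box partner of Lef1, was already high in DN2. Its libraries held 415, 339 and 450 CPM (DN2 WT), 437 and 49.2 CPM (DN2 KO), 815, 760 and 817 CPM (DN3 WT) and 1020, 918 and 477 CPM (DN3 KO). The stages did not overlap in either genotype, but DN3 KO replicate 3 was only just above the highest DN2 library. Between WT stages the log2 fold change was 0.99 (SE 0.605, -0.36 to 2.34, adjusted p = 0.608) and was not called, and that between KO stages was 1.72 (SE 0.714, adjusted p = 0.220). In the fit without the libraries that stand apart it was 1.01 (SE 0.115, adjusted p = 0.000518) in WT and 1.14 (SE 0.180, adjusted p = 0.00600) in KO, both called. Transcript Tcf7-201 made up 87.4% to 98.4% of the gene's TPM in the 11 libraries, and differed by neither stage nor genotype past the test.

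Of the ETS factors, Ets1 (ENSMUSG00000032035.15, chromosome 9, 32636221 to 32757820, plus strand) was the most abundant. Its libraries held 400, 379 and 386 CPM (DN2 WT), 392 and 53.2 CPM (DN2 KO), 963, 924 and 1020 CPM (DN3 WT) and 976, 915 and 424 CPM (DN3 KO). The 3 DN2 WT libraries and DN2 KO replicate 1 lay between 379 and 400 CPM, and every DN3 library was above every DN2 library. Its log2 fold change between WT stages was 1.32 (SE 0.580, 0.03 to 2.61, adjusted p = 0.352) in all libraries and 1.34 (SE 0.0842, adjusted p = 1.87e-05) without the 2. The estimate was nearly the same in both fits while the SE was not. Between KO stages it was 1.79 (SE 0.681, adjusted p = 0.186) in all libraries and 1.26 (SE 0.132, adjusted p = 0.000658) without the 2.

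The main Ets1 transcript, Ets1-201 with 440 codons, made up 86.7% to 96.3% of the gene's TPM. Ets1-202, with 353 codons, leaves out an exon of 261 bases (chr9:32738099-32738359), ends upstream of Ets1-201 with 582 against 3398 bases after the coding sequence, and made up 2.19% to 4.53% of TPM in every group, under the minimum for a test. The junctions show the skipped exon, with the bases that follow the shared exon (chr9:32733940-32734188) in capitals.
Ets1-201: ggagagccagtcgtgGTAAACTCGGGGGCC
Ets1-202: ggagagccagtcgtgGAAGTGGGCCGATCC
The form without this exon thus had a low share at both stages, with group means of 2.20% to 3.46%.

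Ets2 (ENSMUSG00000022895.16, chromosome 16, 95702075 to 95721051, plus strand), the close relative of Ets1, was called higher in DN3 in both genotypes, from a low level in DN2. Its libraries held 22.2, 26.2 and 22.5 CPM (DN2 WT), 17.5 and 3.85 CPM (DN2 KO), 120, 167 and 125 CPM (DN3 WT) and 204, 172 and 117 CPM (DN3 KO). The stages were separate in both genotypes. The log2 fold change between WT stages was 2.54 (SE 0.485, 1.46 to 3.62, adjusted p = 0.0159) and that between KO stages 3.95 (SE 0.614, 2.58 to 5.31, adjusted p = 0.00563). The WT call was lost with any of DN2 WT replicates 1, 2 or 3 or DN3 WT replicates 2 or 3 left out, with adjusted p between 0.0526 and 0.0758, while the log2 fold change stayed between 2.38 and 2.62 in these fits. It was 2.56 in WT without the libraries that stand apart (SE 0.164, adjusted p = 1.90e-05) and 3.42 (SE 0.279, adjusted p = 0.000166) in KO.

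Spib (ENSMUSG00000008193.13, chromosome 7, 44525993 to 44532071, minus strand) had the lowest mean level per length of the 8 factors in DN2 WT. Its libraries held 3.18, 5.91 and 0.920 CPM (DN2 WT), 2.67 and 0.0802 CPM (DN2 KO), 67.3, 37.1 and 48.8 CPM (DN3 WT) and 46.0, 31.3 and 18.6 CPM (DN3 KO). Every DN3 library was above every DN2 library, and DN2 KO replicate 2, with 3 estimated counts of Spib, was the 1 library at the limit of detection. The log2 fold change was 3.94 (SE 1.00, 1.71 to 6.17, adjusted p = 0.0596) between WT stages and 4.56 (SE 1.24, 1.80 to 7.32, adjusted p = 0.0732) between KO stages, neither called. It was called in 11 of 25 alternatives in WT, among them DESeq2 (adjusted p = 0.000254) and the fit without the libraries that stand apart (log2 fold change 3.96, SE 0.566, adjusted p = 0.00174). In KO that fit gave 3.84 (SE 0.932, adjusted p = 0.0448), a call.

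Because Spib is also a gene of plasmacytoid dendritic cells, the markers of these cells were read beside it. Siglech and Klk1 were under 1 CPM in all 11 libraries. In the fit to all libraries Ccr9, a chemokine receptor that thymocytes also express, was the 1 gene of the list called (log2 fold change 4.28, SE 0.989, adjusted p = 0.0395). This count did not hold without the libraries that stand apart. Ccr9 had 5.10 to 14.1 CPM in DN2 WT and 191 to 228 CPM in DN3 WT libraries. The list as a whole summed to 161 to 195 CPM in DN2 WT and 386 to 429 CPM in DN3 WT libraries. Most of this difference was Ccr9. Tcf4 had 56.3 to 84.6 CPM in DN2 WT and 60.7 to 70.8 CPM in DN3 WT libraries. Irf8 had 7.77 to 19.4 CPM in DN2 WT and 15.8 to 20.3 CPM in DN3 WT libraries, so both overlapped between the stages. Bst2 was higher in DN3 WT, with a mean of 113 CPM against 80.6 CPM in DN2 WT. Among B cell markers, Cd79a, Ms4a1 and Pax5 were under 1 CPM in all libraries, and Ebf1 had at most 1.23 CPM. Cd79b had 38.4 to 48.3 CPM in DN2 WT and 61.1 to 65.9 CPM in DN3 WT libraries, again without overlap. It was not called in the fit to all libraries, which also did not hold without the libraries that stand apart. The part of such cells in the Spib values was not otherwise tested.

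**Figure D3:**
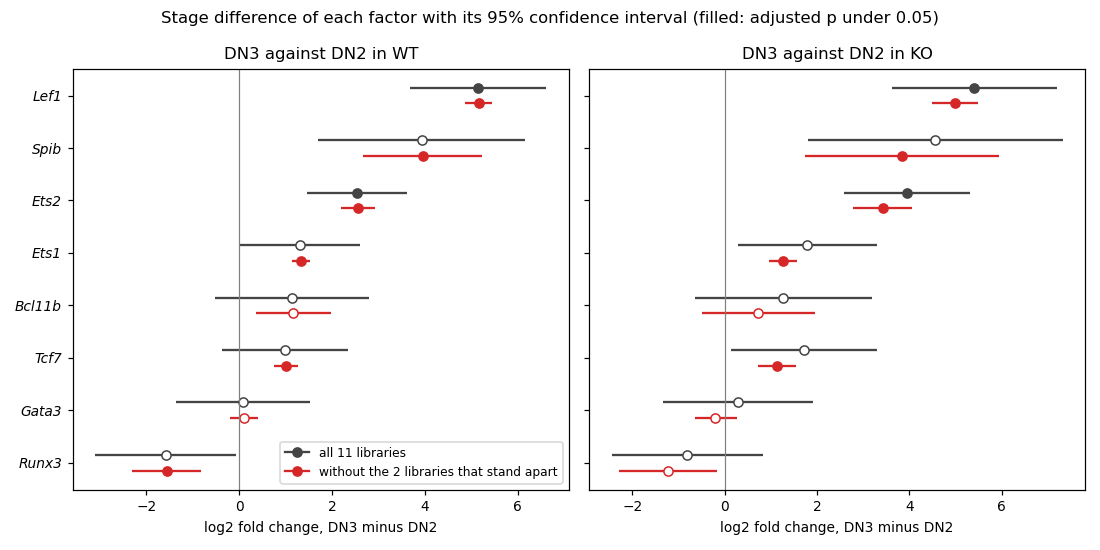
Log2 fold change of DN3 minus DN2 for each factor in WT (left) and KO (right), with its 95% confidence interval, in all 11 libraries (grey) and without the 2 that stand apart (red), filled where the adjusted p was under 0.05. The WT estimates barely move between the fits while their intervals narrow, for Lef1 from 3.68 to 6.62 to 4.87 to 5.46.

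Bcl11b (ENSMUSG00000048251.15, chromosome 12, 107910403 to 108003602, minus strand), the factor that closes commitment, varied more between replicates. Its libraries held 146, 187 and 363 CPM (DN2 WT), 264 and 23.4 CPM (DN2 KO), 325, 547 and 668 CPM (DN3 WT) and 454, 426 and 157 CPM (DN3 KO). DN2 WT replicate 3 was above DN3 WT replicate 1, so the WT stages overlapped. Its log2 fold change between WT stages was 1.15 (SE 0.748, -0.52 to 2.81, adjusted p = 0.658), and in the fit without the libraries that stand apart 1.16 (SE 0.356, 0.36 to 1.97, adjusted p = 0.0591), not called in either. Between KO stages it was 1.27 (SE 0.862, adjusted p = 0.429) in all libraries and 0.73 (SE 0.544, adjusted p = 0.535) without the 2. It was 0.36 without DN2 KO replicate 2 alone, and 3.89 with a call (adjusted p = 0.00576) without DN2 KO replicate 1.

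The 3 Bcl11b transcripts differ in 2 internal exons, whose junctions are shown with the bases of the upstream exon in capitals. They also differ at their ends, since Bcl11b-201 starts at 108003602 and has 5000 bases after the coding sequence, against a start at 108003414 and 181 such bases in both others, so that the shares rest on more than these junctions. Bcl11b-201 with 884 codons holds both, Bcl11b-203 with 812 codons leaves out the 216 bases of exon 3 (chr12:107965672-107965887), and Bcl11b-202 with 690 codons also leaves out the 366 bases of exon 2 (chr12:107989465-107989830).
Bcl11b-201: AGGAGAACATTGCAGggccgtgcaggcctg
Bcl11b-203: AGGAGAACATTGCAGgtaaagatgagcctt
Bcl11b-202: GGGAACTCATCACGCgtaaagatgagcctt
Bcl11b-203 was the major form, with group means of 65.2% in DN2 WT, 70.8% in DN3 WT and 70.5% in DN3 KO, and Bcl11b-201 followed with 31.5%, 25.1% and 26.4%. Bcl11b-202 was at 0% to 7.44% in 10 libraries and at 50.8% in DN2 KO replicate 2, where Bcl11b-203 had its lowest share, 14.2%. None of the 3 differed by stage or genotype by the exact permutation test, the lowest p being 0.285.

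Gata3 (ENSMUSG00000015619.10, chromosome 2, 9857078 to 9890034, minus strand), which is needed from the earliest T cell stages on, was level. Its libraries held 182, 185 and 153 CPM (DN2 WT), 194 and 21.9 CPM (DN2 KO), 201, 164 and 190 CPM (DN3 WT) and 194, 146 and 54.8 CPM (DN3 KO). Apart from the libraries that stand apart, all values were between 146 and 201 CPM and the stages overlapped in WT. The log2 fold change between WT stages was 0.09 (SE 0.648, -1.35 to 1.53, adjusted p = 1.00), and without the 2 libraries it was 0.11 with an interval of -0.20 to 0.41, so that a change of 1 log2 unit lay outside it. Between KO stages it was 0.29 (SE 0.730, adjusted p = 0.829) in all libraries and -0.20 (SE 0.202, adjusted p = 0.671) without the 2, and it was 2.60 with a call (adjusted p = 0.00842) without DN2 KO replicate 1.

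Runx3 (ENSMUSG00000070691.10, chromosome 4, 135120652 to 135177990, plus strand) was the only one of the 8 with a lower mean in DN3. Its libraries held 27.9, 33 and 55.6 CPM (DN2 WT), 38.5 and 5.85 CPM (DN2 KO), 11.3, 15 and 12.6 CPM (DN3 WT) and 22, 11 and 4.84 CPM (DN3 KO). The WT stages did not overlap, while DN2 KO replicate 2 lay inside the range of DN3 KO libraries. The WT stages differed by a log2 fold change of -1.58 (SE 0.685, -3.10 to -0.06, adjusted p = 0.340), and with the 2 libraries left out by -1.56 (SE 0.330, adjusted p = 0.0131), a call. Between KO stages it was -0.81 (SE 0.740, adjusted p = 0.551) in all libraries and -1.23 (SE 0.467, adjusted p = 0.191) without the 2. Runx3-201, from the upstream one of its starts, made up 87.9% to 100% of the gene's TPM. Runx3 and Spib had under 100 estimated counts in at least 1 library, so their transcript shares were not tested.

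The KO stage comparison had the same 2 factors called, Lef1 and Ets2, beside 4.32% of all genes called and 1.39% called higher. For Tcf7, Ets1, Spib, Lef1 and Ets2 all DN3 KO libraries were above all DN2 KO libraries, as for 13.4% of all genes. In the fit without the libraries that stand apart, where DN2 KO is 1 library assumed to vary like the other groups, 5 factors were called higher (Lef1, Ets2, Ets1, Tcf7 and Spib, adjusted p = 0.0448 for Spib) beside 6.15% of genes called and 2.15% called higher. The KO estimates turned on the DN2 KO libraries. With each library left out in turn the log2 fold change ranged from 4.61 to 7.11 for Lef1, 3.20 to 5.42 for Ets2, 3.55 to 8.56 for Spib, 0.95 to 3.87 for Ets1 and 0.85 to 4.04 for Tcf7, the lowest without DN2 KO replicate 2 and the highest without replicate 1, where all 5 were called. In a fit to the 5 KO libraries alone no factor was called, with adjusted p = 0.158 for Lef1 and 0.171 for Ets2. The WT and KO comparisons share no libraries, but they share 1 estimate of the spread. The interaction, which is the test of a difference between them, is given with the genotypes.

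Per length, in TPM, the order of the factors within DN3 WT was Tcf7 with 509 ± 39.0 (SD, n = 3), Ets1 with 305 ± 26.5, Lef1 with 296 ± 20.8, Bcl11b with 192 ± 81.5, Gata3 with 94.1 ± 9.65, Ets2 with 59.6 ± 6.91, Spib with 39.8 ± 15 and Runx3 with 5.25 ± 0.499. Ets1 and Lef1 overlapped in their ranges, as did Ets2 and Spib. In DN2 WT the order was Tcf7 with 238 ± 45.6, Ets1 with 111 ± 12.0, Gata3 with 78.2 ± 9.78, Bcl11b with 75.8 ± 48.0, Runx3 with 14.6 ± 5.42, Ets2 with 10.3 ± 0.367, Lef1 with 9.91 ± 1.92 and Spib with 2.17 ± 1.64 TPM. Lef1 thus went from the level of Ets2 and Runx3 to that of Ets1 between the stages.

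The order of the 4 groups in CPM differed between factors. For Lef1, Ets1 and Spib the means ran from DN2 KO over DN2 WT and DN3 KO to DN3 WT, and only the step from DN2 WT to DN3 KO was free of overlap. For Tcf7 and Ets2 the 2 DN3 groups stood in the other order, again overlapping each other, and for Ets2 the DN2 groups also did not overlap. All neighbours in the order overlapped for Bcl11b, Gata3 and Runx3.

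Between genotypes in DN2 no factor was called, beside 0 of 13780 genes called by edgeR, 2020 genes (14.7%) at an unadjusted p under 0.05 and 38 called by DESeq2. All 8 had a negative log2 fold change (KO minus WT) of -0.62 to -1.30, with a median of -0.76 beside -0.06 over all genes, and 6 of these signs turned without 1 library. In DN2 KO replicate 1 the factors were within or just outside the WT range: Ets2 with 17.5 CPM was below the lowest WT library, Lef1 with 17.5 and Gata3 with 194 CPM were above the highest, and the other 5 were inside. In DN2 KO replicate 2 all 8 were below every WT library. Ets2 was thus the 1 factor with no overlap, lower in KO as were 8.28% of all genes. For DN2 KO replicate 1 alone against the 3 WT libraries, 18.3% of 14563 genes lay above and 17.6% below all of them. Leaving out the libraries that stand apart, the log2 fold changes were -0.41 to 0.20 with a median of 0.09, 6 of them positive. With DN2 KO replicate 1 left out instead, all 8 were called lower, as 6777 genes were called in that fit.

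In DN2 KO replicate 2 all 8 factors were lower than the trend over transcript length. The factors' mean transcript lengths were 2453 to 5458 nt, and 6 of 8 were longer than the median gene of 2614 nt. Relative to the other DN2 libraries without this one, the factors were lower by log2 differences from -2.32 (Lef1) to -4.03 (Spib), where the median of all genes was -0.15 and the trend at their lengths was -0.32 to -1.82. From short to long, Tcf7 (2453 nt), Spib (2544 nt), Gata3 (3210 nt) and Lef1 (3229 nt) had -3.05, -4.03, -3.02 and -2.32. Ets2 (3812 nt), Runx3 (3849 nt), Ets1 (5017 nt) and Bcl11b (5458 nt) had -2.48, -2.66, -2.87 and -3.27. The value of Spib rests on 3 estimated counts in this library. In DN3 KO replicate 3 the differences were -0.40 (Ets2) to -1.70 (Gata3) beside trend values of -0.13 to -1.0, and Ets2 was the only factor above its trend value. In DN2 KO replicate 2 the T cell genes Lck and Lat, whose proteins carry T cell receptor signals, had 2310 and 719 CPM, above the 1120 to 1270 and 197 to 240 CPM of the other DN2 libraries. The same library had 1650 CPM of Nkg7 against 304 to 339 CPM and 203 CPM of Tyrobp against 43.2 to 59.8 CPM in the other DN2 libraries. Of the DN2 markers it had 66.6 CPM of Kit against 446 to 553 CPM and 55.6 CPM of Cd44 against 66.2 to 109 CPM. It had 0.134 CPM of Flt3 against 0 to 4.06 CPM, and more Mpzl2, with 40.3 CPM against 0.843 to 31.4 CPM. Of the lists of other cell types, those of NK and innate lymphoid, γδ T, plasmacytoid dendritic, B and myeloid cells had higher sums in it than in the other DN2 libraries. The NK and innate lymphoid list summed to 1650 CPM against 304 to 339 CPM, nearly all of it Nkg7. The γδ T cell list summed to 7650 CPM against 3000 to 3520 CPM, with 4910 CPM of Tcrg-C1 against 1570 to 2000 CPM, while Trdc had 139 CPM against 192 to 231 CPM. The plasmacytoid dendritic cell list summed to 334 CPM against 156 to 195 CPM, with Bst2 at 317 CPM against 75.4 to 84.6 CPM. In the same list Tcf4 had 6.49 CPM against 56.3 to 84.6 CPM, and Ccr9 had 0.347 CPM against 5.10 to 14.1 CPM. The B cell list summed to 63.8 CPM against 38.6 to 49.6 CPM, with Cd79b at 63.6 CPM. The myeloid list summed to 357 CPM against 114 to 159 CPM, with S100a8 and S100a9 under 1 CPM in all libraries. Its members Csf1r and Itgam had 0.0535 and 0 CPM against 0.944 to 4.14 and 2.26 to 6.63 CPM. The part of RNA length, of other cells and of genotype in these low values was not tested.

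**Figure D4:**
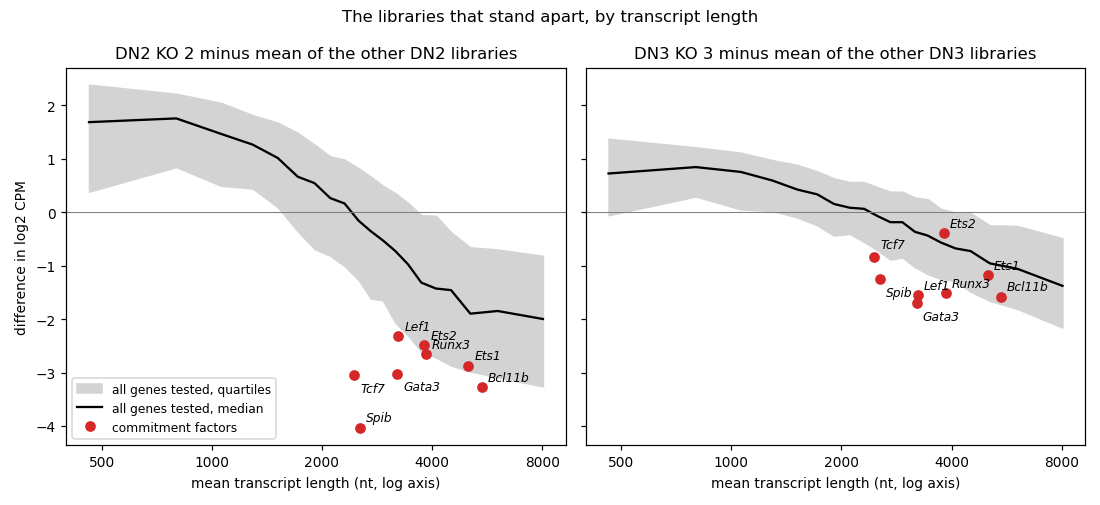
Difference in log2 CPM of DN2 KO replicate 2 (left) and DN3 KO replicate 3 (right) from the mean of the other libraries of the stage that do not stand apart, against mean transcript length on a log axis. The grey band and black line are the quartiles and the median over 20 bins of all genes tested and the red points are the 8 factors, which all lie under the line on the left and all but Ets2 under it on the right.

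Between genotypes in DN3 no factor was called, beside 0.00726% of genes called (1 of 13780) and 214 genes (1.55%) at an unadjusted p under 0.05. The log2 fold changes (KO minus WT) ran from -0.67 for Spib to 0.26 for Ets2 with a median of -0.35, beside -0.00 over all genes, and the KO and WT ranges overlapped for all 8, while 10.5% of genes did not overlap. The 95% confidence intervals were wide, for Lef1 -1.60 to 0.86 and for Bcl11b -2.22 to 1.08. With the 2 libraries left out, 0.0343% of genes were called and no factor, and the intervals were -0.29 to 0.26 for Lef1, -0.25 to 0.17 for Ets1, -0.47 to 0.22 for Gata3, -0.01 to 0.56 for Tcf7 and 0.06 to 0.83 for Ets2. Ets2 had the lowest unadjusted p of the 8 in that fit, 0.0284 with an adjusted p of 1.00 by edgeR, and DN3 KO replicates 1 and 2 with 204 and 172 CPM were both above the 3 WT libraries, as they were for Tcf7 with 1020 and 918 CPM and for 11.6% of 14563 genes. A change of more than 1 log2 unit thus lay outside the 5 intervals of Lef1, Ets1, Gata3, Tcf7 and Ets2. The intervals of Bcl11b (-1.13 to 0.66), Spib (-1.66 to 0.85) and Runx3 (-0.48 to 1.16) reached past 1 log2 unit. All 8 intervals rest on 2 KO libraries.

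The difference of the stage effect between genotypes was called for no factor and for 0 of 13780 genes by edgeR (373, or 2.71%, at an unadjusted p under 0.05, and 12 called by DESeq2). All 8 interaction terms were positive in all libraries, with a median of 0.55 and the largest for Ets2, 1.41 (SE 0.699, -0.15 to 2.96, adjusted p = 0.964). With the 2 libraries left out 3 were positive and 5 negative with a median of -0.09. Ets2 then had 0.86 (SE 0.286, 0.21 to 1.51, adjusted p = 1.00), on a single DN2 KO library.

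Around the 8 factors, genes of the same programme were read from 4 lists. Of 18 T lineage genes acquired at commitment, 8 were called higher and 1 lower (Tespa1, a gene of T cell receptor signalling, by -1.05), with a median log2 fold change of 1.16 beside 0.01 over all genes. The widest were Ptcra, the α chain partner of the pre-T cell receptor, with a log2 fold change of 7.76 (SE 0.688), the recombinase gene Rag1 with 6.54 (SE 0.557), and the CD3 chains Cd3d with 5.64 (SE 0.783) and Cd3e with 3.16 (SE 0.398). Their adjusted p values were between 0.000316 and 0.00341. In KO the same list had 8 called higher and 0 lower, with a median of 1.62, and Ptcra, Rag1, Cd3d and Cd3e again were the widest, with 6.15, 6.79, 4.59 and 3.75.

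Of 17 progenitor transcription factors known to be silenced at commitment, 8 were called lower and 0 higher in WT, all 17 had a negative log2 fold change, and the median was -3.78. Lyl1 had 8.23 to 12.5 CPM in DN2 WT and no count in any DN3 library, and Tal1 had 1.13 to 4.45 CPM in DN2 WT and no count in DN3 WT, so their fitted fold changes have no set size. Hhex, a homeobox gene, fell by 6.61 on the log2 scale (SE 0.605, adjusted p = 0.000452), and Spi1, the gene of the ETS factor PU.1, fell by 4.25 (SE 0.506, adjusted p = 0.00155). In KO also 8 were called lower, with a median of -4.37. With the 2 libraries left out 15 of the 17 were called lower in WT and 10 in KO.

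Of 16 partner factors of the T cell programme, 1 was called in WT, namely the Notch receptor gene Notch3, with 49.5, 29.0 and 59.4 CPM in DN2 WT libraries and 362, 399 and 454 CPM in those of DN3 WT (log2 fold change 3.14, SE 0.644, adjusted p = 0.0229). The median of the list was 0.28. In KO Notch3 was again the 1 gene called, with a log2 fold change of 3.57. With the 2 libraries left out 5 were called higher (Notch3, Notch1, Ikzf3, Tcf12 and Runx1) and 1 lower (Myb) in WT. Runx1, of the same family as Runx3, had 388, 368 and 461 CPM in the DN3 libraries of WT and fewer in those of KO, with 297, 234 and 102 CPM, but the difference was not called (log2 fold change -0.94, SE 0.644, adjusted p = 1.00). Of 21 paralogs of the 8 factors, Spi1, also counted above, was the 1 called in either genotype, lower in DN3, and the median was -0.42 in WT and 0.14 in KO.

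**Figure D5:**
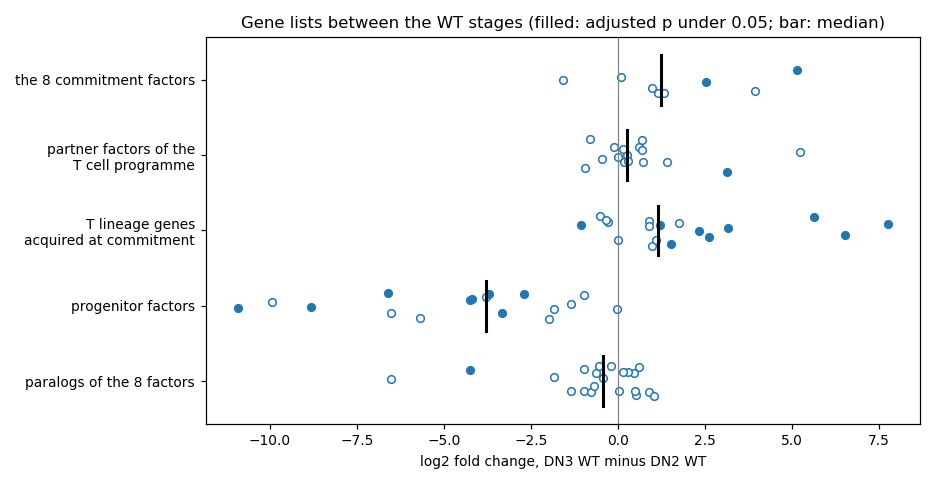
Log2 fold change of DN3 WT minus DN2 WT for the 8 factors and 4 lists of related genes, 1 point a gene, filled where the adjusted p was under 0.05, with a bar at each median. The medians are 1.23 for the 8 factors, 0.28 for partner factors, 1.16 for T lineage genes, -3.78 for progenitor factors and -0.42 for paralogs.

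Between genotypes these 4 lists had no gene called in either stage in all libraries. In DN3 their medians were between -0.32 and 0.00, and in DN2 between -0.68 and -0.32 with all libraries and between -0.06 and 0.08 without the 2. Of the T lineage genes in DN3 the lowest unadjusted p was that of Rag1, with 904, 867 and 973 CPM (WT) against 413, 335 and 236 CPM (KO), a log2 fold change of -1.48 that was not called (adjusted p = 1.00). Of the progenitor factors it was that of Nfe2, with 34.9, 30.8 and 28.0 CPM (WT) against 11.7, 12.1 and 15.7 CPM (KO), a log2 fold change of -1.25 (adjusted p = 1.00), and Nfe2 was called lower once the 2 libraries were left out (-1.39, SE 0.139, adjusted p = 0.0182).

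Markers of other cells that a sorted fraction could hold were read for the whole lists. Of 5 thymic epithelial markers, Foxn1, Krt5, Krt8 and Psmb11 were under 1 CPM in all libraries and Epcam, which thymocytes also express, rose in WT (log2 fold change 3.57, SE 0.702, adjusted p = 0.0189). DP thymocyte markers (Cd4, Cd8a, Cd8b1, Trac) summed to 1.07 to 4.32 CPM in DN2 and 13.0 to 28.1 CPM in DN3 libraries. All 4 had a positive log2 fold change between stages in either genotype. None was called in the fit to all libraries, which did not hold without the libraries that stand apart. Of the NK and innate lymphoid markers, Ncr1 and Eomes were under 1 CPM throughout, and Nkg7 had 304 to 338 CPM in DN2 WT and 96.6 to 131 CPM in DN3 WT libraries. The γδ T cell list, led by the constant genes Tcrg-C1 and Tcrg-C2, summed to 3000 to 3390 CPM in DN2 WT and 2060 to 2310 CPM in DN3 WT libraries. Myeloid markers summed to 114 to 159 CPM in DN2 WT and 29.9 to 36.8 CPM in DN3 WT, with Tyrobp and Fcer1g called lower (log2 fold changes of -7.16 and -4.31). Whether fewer cells of a type or less RNA per cell gave these sums cannot be told apart in such libraries.

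The genes most like each factor over the 11 libraries were found by the root mean square difference of log2 CPM after centring each gene on its mean, among 8503 genes of at least 10 CPM on average. The closest were Sart3 and Abr for Gata3 and Ucp2 for Tcf7, each at 0.13 log2 units, followed by Myc for Tcf7 at 0.17. For Ets1 it was Tcf7 itself at 0.18, then Gm9973 at 0.20. Tle3 lay at 0.33 from Bcl11b. Runx3 was nearest to Abca7 and Bcl11a at 0.34 and 0.36, and Ets2 to Cd3e and Gfra1, both at 0.40. Lef1 and Spib had no such close match, with Bmf at 0.46 and Itgb4 at 0.68 for Lef1 and Camk4 at 0.55 and Ccr9 at 0.79 for Spib. These distances include the library-wide shifts of the libraries that stand apart.

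Promoters of the factors were searched on both strands for short motifs of the families they belong to, since the factors are known to act on each other's genes. RefSeq promoters of GRCm38.p6 (300 bases, of which 50 follow the start) were at hand for 7 of the 8 genes, 12 promoters in all, and Ets1 had none in the table. The TCF and LEF motif CTTTGA was in promoters of 2 genes (Bcl11b and Lef1) and in 16% of all 32851 promoters, the ETS motif GGAAGT in those of 3 genes (Bcl11b, Lef1, Tcf7) and in 23.8% of all, the GATA motif AGATAA in 1 gene (Lef1) and 11.2% of all, and the RUNX motif TGTGGT in 1 gene (Runx3) and 16.8% of all. No matches overlapped each other. The windows show, for each gene and motif, the match nearest to a start, with the motif or its reverse complement in capitals, read along the gene's strand.
Bcl11b, chr12:108003595-108003618, minus strand: cccttgggtGGAAGTgcgcgttcc
Bcl11b, chr12:108003489-108003512, minus strand: ggccaagcaCTTTGAagaagtgtg
Lef1, chr3:131156165-131156188, plus strand: tgtctgttcTCAAAGtcaggtctt
Lef1, chr3:131156273-131156296, plus strand: ttgcacacaGGAAGTtataacaga
Lef1, chr3:131156302-131156325, plus strand: aaaaggtgtTTATCTctattgaag
Tcf7, chr11:52282607-52282630, minus strand: gctggagtcACTTCCggtgccctg
Runx3, chr4:135120510-135120533, plus strand: aaccacagaACCACAaggccaggc
The Lef1 matches lie at a RefSeq start inside the gene, downstream of both starts compared above, and the 3 other Lef1 promoters in the table held none of the 4 motifs. These are matches of letters in windows of this length and do not show binding.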

How the data were processed

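Sorted DN2 and DN3 thymocytes were profiled by RNA-seq (SmartSeq V4 with Nextera, paired-end) in 11 libraries. The authors pseudo-aligned trimmed reads to the Ensembl 101 transcripts of GRCm38 with kallisto 0.46. The deposited estimated counts per transcript are unnormalized and need not be whole, the deposited TPM are scaled for length and to a fixed sum, and the deposited effective lengths are another unit, in bases. The depth was 14531762 to 63109504 estimated counts per library, and 3 counts correspond to 0.0802 to 0.242 CPM. Such limits cover counting error only.

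Of 119414 transcripts, 116728 were matched by identifier to GENCODE M21 and 2686 were not matched and not used. Gene totals of the estimated counts were rounded to whole numbers and filtered by filterByExpr (minimum count 10, minimum total 15). Genes were tested two-sided with edgeR 4.0.16 in R 4.3.3 (TMM, glmQLFit, glmQLFTest) over 4 groups, adjusted by Benjamini-Hochberg over all genes, where an adjusted p under 0.05 was a call. Compared were DN3 against DN2 in each genotype, KO against WT in each stage, and their interaction. SEs are the log2 fold change over the root of the F statistic. Transcript shares of TPM were tested for genes of at least 100 estimated counts in every library and transcripts of at least 5% in a group mean, by exact two-sided permutation within genotypes or within stages, all 200 arrangements. Both procedures were tested on simulated data. Tables and plots used Python 3.11.15, numpy 2.4.6, pandas 2.3.3 and matplotlib 3.10.9.

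The 8 factors, the lists around them and the alternatives were chosen with earlier results of these data known. Apart from the factors, Arpp21 and the 2 genes most like each factor, up to 4 called genes per list and comparison with the largest fold change are named, or the 2 with the lowest p where none was called, and markers that were at 0 or moved with a factor. A gene that this rule names for Bcl11b is not reported here. Lck, Lat, the DN2 markers and the markers of other cell types given for DN2 KO replicate 2 were named after their values were seen. So were Ebf1, Bst2, Tcf4 and Irf8 beside Spib, Tespa1, and the partner factors called without the libraries that stand apart. Alternatives were DESeq2 1.42.0, its size factors in edgeR, no filter, at least 10 CPM in at least 2 libraries, offsets for average transcript length and for the trend over length, limma-trend of limma 3.58.1 with pseudocounts of 1 or 0.1 on log2 TPM, limma voom with sample quality weights, an adjusted p under 0.1, replicate blocks, a covariate for an index in the file names, only the groups compared, the libraries that stand apart left out, and each library left out in turn.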

Additional observations from a re-analysis of the deposited data

How the results depend on the processing

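In WT the factors called between stages, 2 in the fit reported, were 4 with the offset for the trend over transcript length, 7 with voom weights, 6 without the libraries that stand apart and 6 with the WT libraries alone, and 1 to 4 with each library left out. In KO, 2 became 4, 1, 5 and 0 under the same settings and 2 to 7 with each library left out. KO against WT in DN2 and the interaction had 0 called, and 0 to 8 and 0 to 6 with each library left out, the highest without DN2 KO replicate 1, and KO against WT in DN3 had 0 in each. Leaving out any 1 library, or the 2 that stand apart, left 0 of the 2 Lef1 transcripts past the threshold for stage, since fewer arrangements allow no smaller p, and in each such set both transcripts had the smallest p possible. For genotype 0 transcripts passed in any.

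All genes called, 562 between WT stages, were 216 (genotype and replicate number as a block) to 2326 (voom weights), and 1165 by DESeq2. Between KO stages 595 became 0 (KO libraries alone) to 6754 (without DN2 KO replicate 1), and 1553 by DESeq2. Between genotypes in DN3 1 became 0 to 118, and 13 by DESeq2. In DN2 and in the interaction 0 became up to 6777 and 3664 without DN2 KO replicate 1.

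Of 976 values of single factors under alternatives, 855 kept direction and call, 9 lost and 53 gained a call, and 59 changed sign. None of these changes of sign was a call in the fit reported. Without the libraries that stand apart the log2 fold change became -0.20 for Gata3 between KO stages, and between genotypes in DN2 0.20 (Bcl11b), 0.14 (Tcf7), 0.16 (Lef1), 0.18 (Gata3), 0.03 (Ets1) and 0.01 (Runx3), in DN3 0.34 (Runx3), and for the interaction -0.43 (Bcl11b), -0.17 (Lef1), -0.31 (Gata3), -0.07 (Ets1) and -0.12 (Spib). With the covariate for the file name index, whose meaning is not stated, it was -0.38 for Gata3 between WT stages, and between genotypes in DN3 0.13 (Lef1), 0.24 (Gata3), 0.26 (Ets1), 0.38 (Runx3) and 0.92 (Spib). On log2(TPM + 1) it was -0.30 (Tcf7) and -0.03 (Ets2) in DN3 between genotypes and -0.16 for Spib in the interaction, and on log2(TPM + 0.1) -0.30 (Tcf7) and -0.03 (Ets2), and 0.04 for Runx3 between KO stages. Runx3 was also at 0.07 with voom weights between KO stages and at 0.01 with the trend offset between genotypes in DN3, and the interaction of Bcl11b was -0.06 with the offset for average length. With each library left out in turn the log2 fold change ranged from -0.59 to 2.60 (Gata3) and -1.64 to 1.12 (Runx3) between KO stages. Between genotypes in DN2 the ranges were -3.32 to 0.21 (Bcl11b), -3.04 to 0.14 (Tcf7), -2.33 to 0.16 (Lef1), -2.99 to 0.18 (Gata3), -2.88 to 0.03 (Ets1) and -2.74 to 0.01 (Runx3), and in DN3 -0.19 to 0.28 (Tcf7) and -0.71 to 0.35 (Runx3). For the interaction they were -0.79 to 2.75 (Bcl11b), -0.14 to 3.05 (Tcf7), -0.54 to 1.96 (Lef1), -0.68 to 2.51 (Gata3), -0.37 to 2.55 (Ets1), -0.06 to 2.71 (Runx3) and -0.39 to 4.62 (Spib). In KO stages, in DN2 and in the interaction both ends came from leaving out DN2 KO replicate 1 or 2. Apart from the sets without the libraries that stand apart, the causes were not tested.

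Replicate numbers are shared between groups by label only. Deviations of same-numbered libraries from their group means correlated between -0.454 and 0.53. Both ends came from DN2 KO against DN3 KO. The 2 DN2 KO libraries deviate from their mean by equal and opposite amounts, so these values cannot decide whether the numbers are pairs. Between the WT stages the correlations were 0.289, 0.085 and 0.178. The numbers were not taken as pairs in the tests reported. With the replicate number as a block the counts of factors called stayed at 2 and 2 between stages, and Tcf7 between genotypes in DN3 was -0.02. With genotype and replicate number as the block Runx3 between KO stages was 0.04. In an exact test of transcript shares with same-numbered libraries as pairs, added after the data were seen, 0 transcripts passed for stage (2 in the test reported) and 0 for genotype. With 5 pairs its smallest possible p is 0.0625, which Lef1-201 (28.3 percentage points, higher in 5 of 5 pairs) and Lef1-203 (-24.8, lower in 5 of 5) both had for stage.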
